A study of Homo sapiens with 6 samples.

Results

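The transporters described here are the solute carriers of 9 families that move amino acids, glucose and lactate across membranes. They were chosen by symbol alone, as every row of the deposited table whose name belongs to family SLC1, SLC2, SLC3, SLC6, SLC7, SLC16, SLC36, SLC38 or SLC43, which gave 57 of 15706 genes. The study sequenced RNA of MDA-MB-231 cells, an established line of human breast cancer without hormone receptors or HER2 amplification, in 6 libraries. The 3 control libraries carried a non-targeting guide RNA (sgNT, labelled wild type), and the 3 knockout libraries a guide against MLL3 (sgMLL3), also named KMT2C, which methylates lysine 4 of histone H3 at enhancers. All cells were untreated and grown in DMEM with serum, and the labels call the libraries of a group biological replicates 1 to 3 without saying whether they were clones or pools. The submitters' title sets the comparison in the context of metastasis and hybrid epithelial and mesenchymal states.

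Amino acids enter cells by several routes that work together. Sodium-coupled carriers such as the SLC38 proteins load the cell with small neutral amino acids such as glutamine, and exchangers such as SLC1A5 and the SLC7 light chains then trade these for others, for example leucine or cystine. The SLC7 light chains reach the plasma membrane only when bound to a heavy chain, chiefly SLC3A2 (CD98). Glucose enters through the SLC2 (GLUT) proteins, and the lactate made from it leaves through the proton-coupled SLC16 (MCT) carriers. Tumour cells commonly use all of these heavily, and the kinase complex mTORC1 and the transcription factor ATF4 couple growth and stress responses to the amino acid supply.

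Levels are read counts normalized by the authors, and group values are means ± SD over 3 libraries. A log2 fold change is knockout minus control on the log2(value + 1) scale with the standard error (SE) from limma. "Higher" and "lower" are used only where the Benjamini-Hochberg adjusted p of limma over all tested genes passed 0.05. Since the cells were measured in bulk, fewer cells that express a gene and less RNA per cell cannot be told apart. The libraries held 41240265 to 49514464 recovered reads. KMT2C itself was read at 1367, 1379 and 1255 normalized counts in the control libraries and at 1519, 1660 and 1339 in the knockout libraries (log2 fold change 0.17, SE 0.10, limma adjusted p = 0.205), so its transcript gave no check of the label. All 5 genes taken as present in this line (VIM, CD44, EGFR, AXL and CAV1) were abundant, and the epithelial cadherin gene CDH1 stood at 5.59 and 4.02 counts. ESR1 and PGR had no row, whereas ERBB2 and EPCAM were read at 5776 and 784 counts in the controls. Fibroblast markers, with rows for 4 of 7, summed to 1732 to 1908 counts in the control and 1012 to 1105 in the knockout libraries, and leukocyte markers, with rows for 5 of 6, to 547 to 853 and 439 to 503. Their part in the transporter results was not tested.

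Across all genes, the change between the groups ran along the GC content of the transcripts. Spearman's rho between log2 fold change and GC content was -0.673 over 14598 tested genes and -0.668 over the 54 tested transporter genes, a description across genes and not across samples. Each called transporter gene is therefore given as deposited and again after a smooth trend along GC content and transcript length had been subtracted from each library, called trend removal. For the other genes the second value is given only in part. The trend separates the groups, so what belongs to it and what belongs to the guide cannot be told apart.

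Of the 57 transporter genes, 54 had a mean of at least 10 counts and were tested, and 3 (SLC2A9, SLC7A8 and SLC16A11) were not. In the knockout libraries 7 were higher and 6 lower, which is 24.1% of those tested, against 33.2% of all tested genes (18.9% higher and 14.4% lower). The count test of edgeR on recovered reads also gave 7 and 6, against 33.6% of all genes, and in the authors' deposited table the numbers were 7 and 5, against 38.5% of the genes with an adjusted p there. The groups did not overlap in 8 transporter genes with the knockout above and in 7 with it below, against 23.9% and 22.4% of all tested genes, the uncalled ones being SLC1A3 and SLC2A1. The share of transporter genes called was thus no larger than that of genes at large, and their median log2 fold change was -0.00031 against -0.017 for all tested genes. The higher genes were SLC38A1, SLC38A2, SLC38A9, SLC36A4, SLC7A11, SLC16A7 and SLC2A12, and the lower ones SLC38A10, SLC7A5, SLC16A5, SLC2A8, SLC6A8 and SLC1A7. With trend removal 2 were higher (SLC38A1 and SLC16A3) and 1 lower (SLC38A4), against 4.08% and 5.95% of all genes so tested (10.0% in either direction). SLC38A1 was the single transporter gene higher in both analyses, and none was lower in both. Of all 14598 genes so tested, 543 were higher in both and 384 lower in both.

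**Figure D1:**
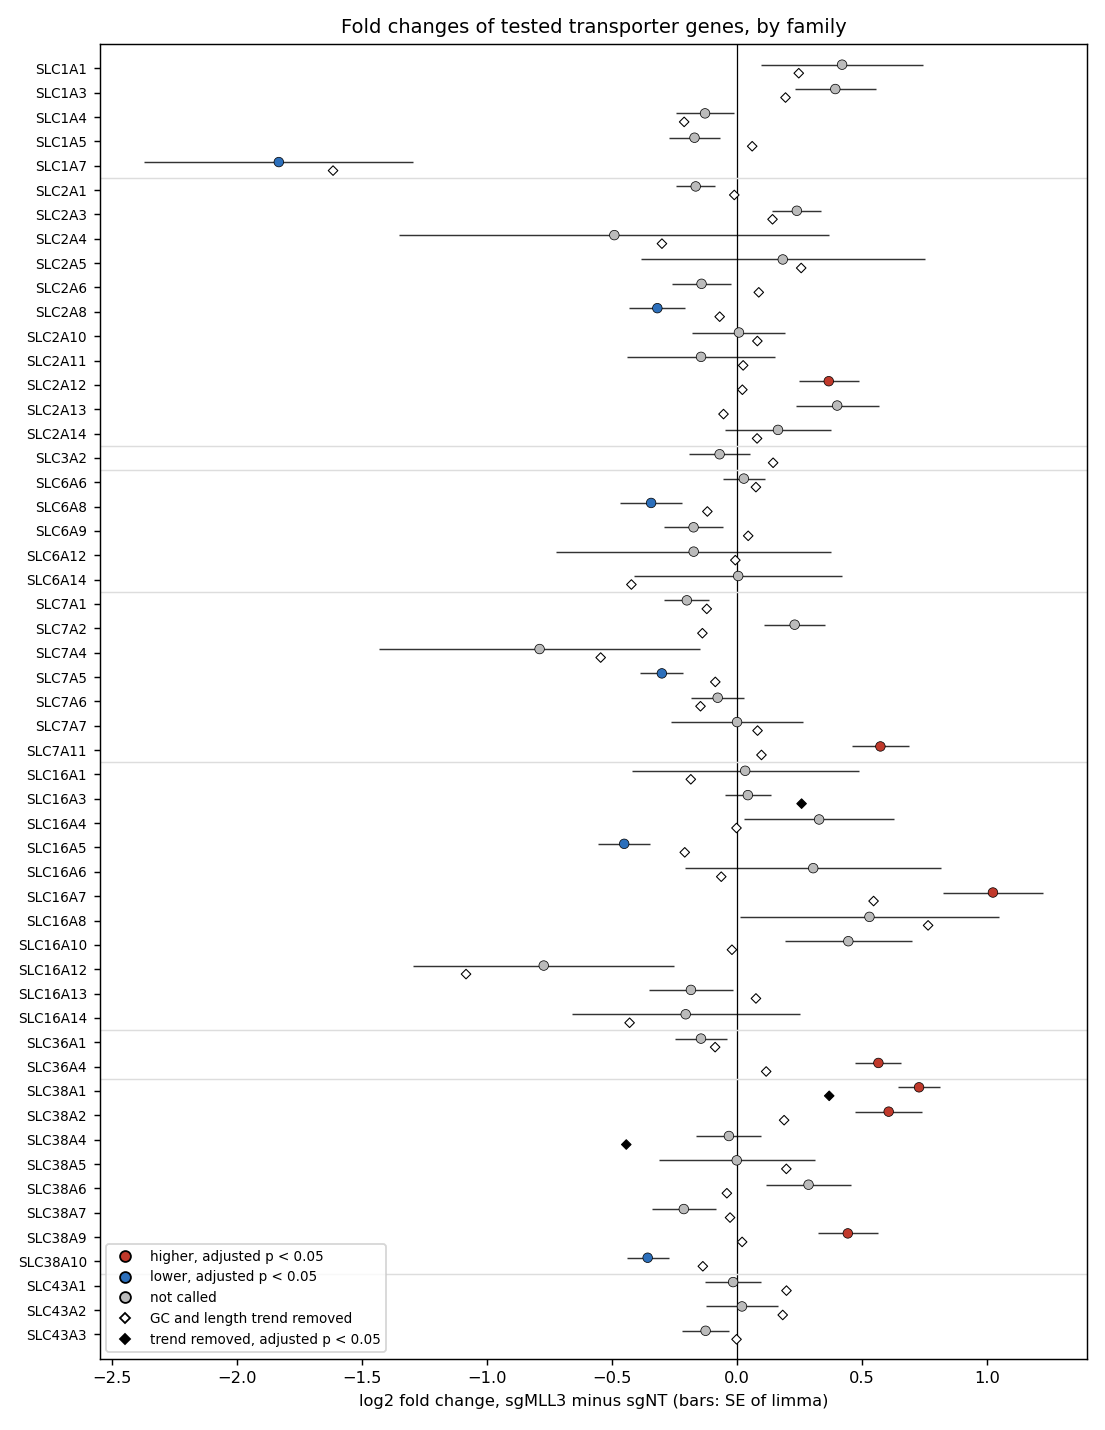
Log2 fold changes (knockout minus control, horizontal axis) of the tested transporter genes by family, 1 of them left out: circles with bars are values as deposited with their SE, red higher, blue lower and grey not called, and diamonds are values after trend removal, filled where called. Calls as deposited fall in 7 families, SLC1A7 lies far to the left at -1.83, and filled diamonds stand at SLC16A3, SLC38A1 and SLC38A4 alone.

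Family SLC38, which holds the glutamine carriers, had 3 genes higher and 1 lower of 8, against 33.2% of all tested genes called. The 3 higher genes had 36.02% to 41.28% GC and the lower gene 64.35%. Of all tested genes at or under 45% GC, 2513 of 5358 were higher, and at or above 55% GC 1559 of 4293 were lower. The median log2 fold change of the family was 0.14 as deposited and -0.0036 with trend removal. SLC38A1 (SNAT1, ENSG00000111371.16, chromosome 12, 46183063 to 46270017 on GRCh38, minus strand), a sodium-coupled importer of glutamine, was read at 5540, 6444 and 5925 counts in control replicates 1, 2 and 3 and at 10490, 9903 and 9263 in the knockout replicates. Every knockout library lay above every control library. The mean rose from 5970 ± 454 to 9885 ± 613, by 0.73 on the log2 scale (SE 0.083, limma adjusted p = 3.9e-05), and it stayed higher by 0.37 with trend removal (SE 0.071, adjusted p = 0.0084). That second call was lost without knockout replicate 1 (0.35, adjusted p = 0.067) and held without any other library.

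SLC38A2 (SNAT2, chromosome 12, 46358189 to 46372867), the carrier that cells induce when amino acids run short, lies 88.2 kb from SLC38A1. It was read at 6497, 10312 and 10335 counts in the controls and at 15164, 13096 and 12319 in the knockouts, from 9048 ± 2209 to 13526 ± 1470 (0.61, SE 0.13, limma adjusted p = 0.0028). Control replicate 1 was far below the other controls, and without it the difference was 0.38 (SE 0.082, adjusted p = 0.00036). With trend removal the value was 0.19 (SE 0.16, adjusted p = 0.502), and it turned to -0.065 when control replicate 1 was also left out.

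The third gene of this cluster, SLC38A4 (SNAT4, chromosome 12, 46764761 to 46832408), a carrier of small neutral amino acids, lies 391.9 kb further on. Its counts of 422, 447 and 484 in the controls overlapped those of 505, 407 and 416 in the knockouts (-0.032, SE 0.13, adjusted p = 0.871). With trend removal it was lower at -0.44 (SE 0.12, limma adjusted p = 0.035), and leaving out any library but control replicate 1 lost that call (adjusted p of 0.0822 to 0.161). SLC38A4 is described because of that value, outside the rule for named genes. Neighbouring genes of one family thus differed in what they did, with SLC38A1 and SLC38A2 higher as deposited and SLC38A4 not called.

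Other SLC38 proteins sit on internal membranes. SLC38A9, the lysosomal arginine sensor that signals to mTORC1, rose from 668, 596 and 571 counts to 944, 829 and 730 (0.44, SE 0.12, limma adjusted p = 0.010), and SLC38A10 fell from 3251, 3296 and 3507 to 2486, 2696 and 2667 (-0.36, SE 0.084, adjusted p = 0.0043). The groups did not overlap for either gene. Without knockout replicate 1 the SLC38A9 call was lost (0.35, adjusted p = 0.0821). After trend removal SLC38A9 stood at 0.021 (adjusted p = 0.914) and SLC38A10 at -0.14 (adjusted p = 0.206). Their transcripts have the lowest and the highest GC content of the family, 36.02% and 64.35%. SLC38A5, SLC38A6 and SLC38A7, the last a lysosomal glutamine exporter, were not called (-0.00092, 0.29 and -0.21). Per kilobase of the longest transcript, SLC38A2 made up 45.2% ± 5.23 of the summed level of the 8 SLC38 genes in the controls and 51.9% ± 1.98 in the knockouts, and SLC38A1 18.4% ± 1.75 and 23.0% ± 0.399. These shares come from values as deposited and were not computed with trend removal.

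Of the SLC36 carriers, which move amino acids across lysosomal and cell surface membranes, SLC36A4 (PAT4, chromosome 11, 93144171 to 93197964) rose. It was read at 1902, 2157 and 1969 counts in the controls and at 3134, 3091 and 2705 in the knockouts (0.57, SE 0.092, limma adjusted p = 0.00029). The groups lay well apart, although with trend removal the value was 0.12 (SE 0.063, adjusted p = 0.275). SLC36A1 (PAT1) was not called in either analysis (-0.14 and -0.087).

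**Figure D2:**
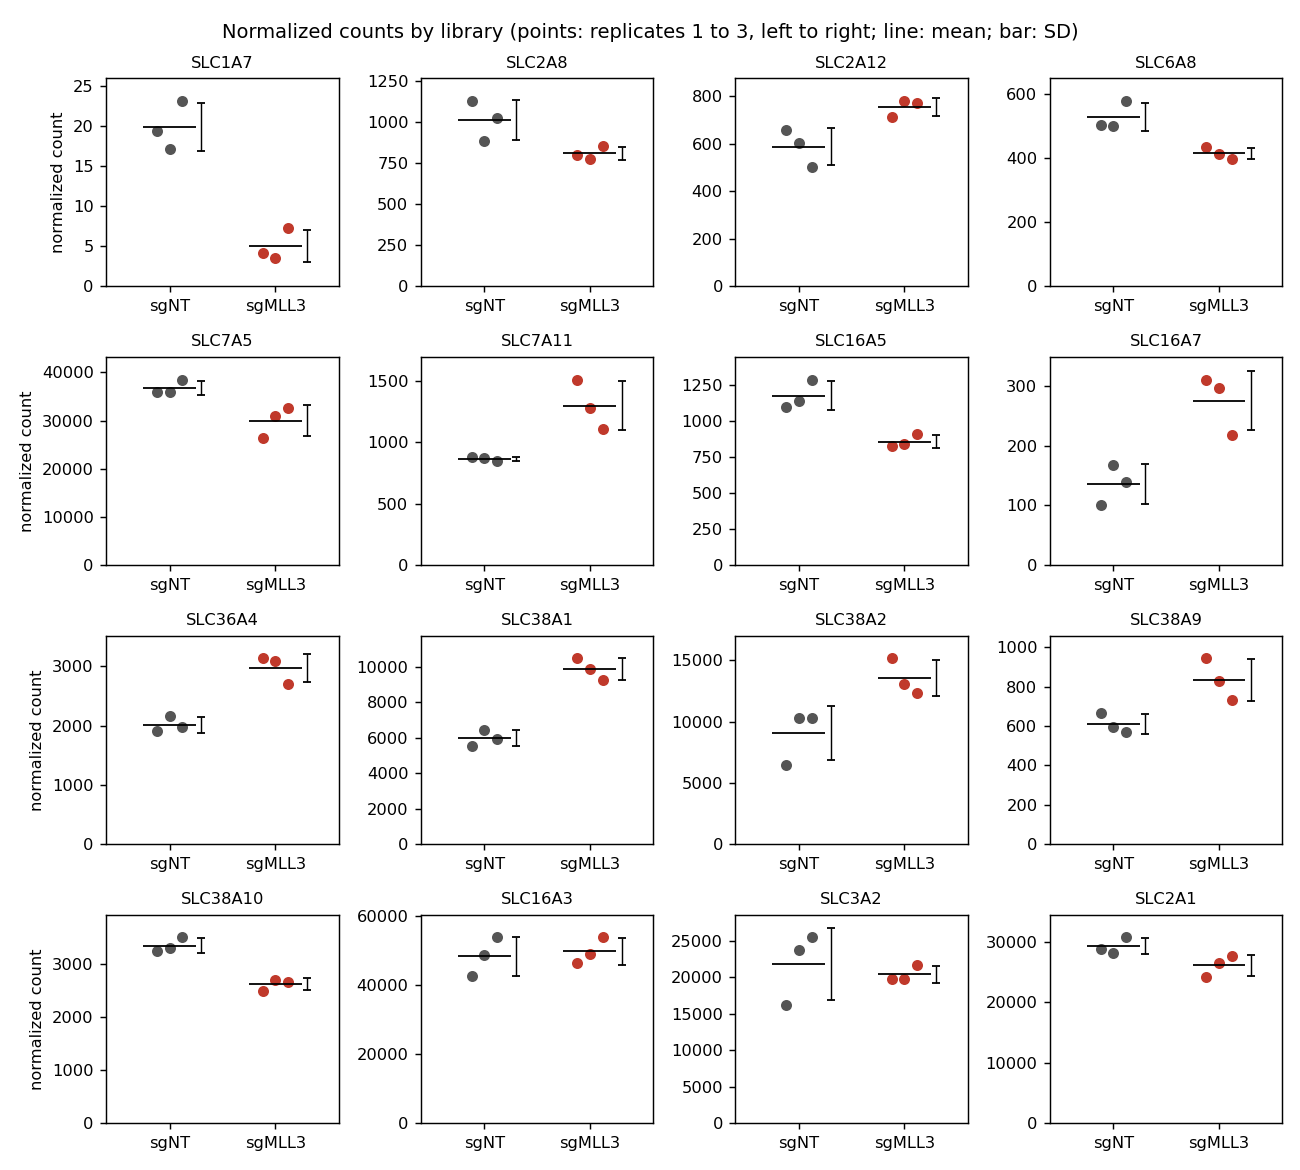
Normalized counts (vertical axes, from 0) of the 13 called transporter genes and of SLC16A3, SLC3A2 and SLC2A1 in each library, with points for replicates 1 to 3 from left to right, a line for the mean and a bar for the SD. The groups are apart for each of the 13, for example 5540 to 6444 against 9263 to 10490 for SLC38A1, and overlap for SLC16A3 and SLC3A2.

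Of 4 tested SLC7 exchangers that pair with a heavy chain, 1 was higher and 1 lower, against 18.9% and 14.4% of all tested genes. The other 2 were not called, and none was called with trend removal. SLC7A11 (xCT, chromosome 4, 138164097 to 138242349), which imports cystine for glutathione synthesis in exchange for glutamate, was read at 879, 872 and 849 counts in the controls and at 1513, 1281 and 1109 in the knockouts. Its control values were close together and all below the knockout values, which spread more widely (867 ± 15.7 against 1301 ± 202.5). The rise was 0.57 on the log2 scale (SE 0.11, limma adjusted p = 0.0013), and with trend removal the value was 0.098 (SE 0.082, adjusted p = 0.497). SLC7A11-AS1, which shares 871 bases with it on the other strand, was listed at a mean of 3.3 counts.

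SLC7A5 (LAT1, chromosome 16, 87830023 to 87869488), the main importer of leucine and other large neutral amino acids, was far more abundant. It was read at 35944, 35877 and 38523 counts in the controls and at 26361, 31006 and 32534 in the knockouts, and it fell by 0.30 on the log2 scale (SE 0.086, limma adjusted p = 0.013). The call was lost without knockout replicate 1, the lowest library, after quantile normalization and with trend removal, which left -0.087 (SE 0.052, adjusted p = 0.328). Per kilobase of transcript SLC7A5 exceeded SLC7A11 86.9 to 96.5 times in the control libraries and 37.0 to 62.3 times in the knockout libraries. SLC7A11 made up 1.06% ± 0.0606 of the summed light chains in the controls and 1.96% ± 0.505 in the knockouts, and SLC7A5 95.6% ± 0.399 and 94.1% ± 1.02. These ratios and shares come from values as deposited and were not computed with trend removal. The transcript of SLC7A11 has 35.4% GC and that of SLC7A5 61.1%, and with trend removal neither gene was called (0.098 and -0.087).

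SLC3A2 (CD98, chromosome 11, 62856102 to 62888875), the heavy chain these light chains share, was not called. It was read at 16138, 23817 and 25500 counts in the controls and at 19744, 19747 and 21757 in the knockouts (-0.069, SE 0.12, adjusted p = 0.693). Control replicate 1 lay below every knockout library and the other controls above all of them. Without that library SLC3A2 was lower (-0.27, SE 0.076, limma adjusted p = 0.0045). With trend removal SLC3A2 stood at 0.14 (SE 0.12, adjusted p = 0.479), and it was not called when that library was left out as well. SLC7A6 (y+LAT2) and SLC7A7 (y+LAT1), which exchange arginine for neutral amino acids, were not called (-0.077 and 0.0003), and 53.5% of the longest SLC7A6 transcript overlaps SLC7A6OS on the other strand. SLC7A8 (LAT2) was too low to test, at 4 to 26 recovered reads.

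The cationic carriers of the family, which need no heavy chain, were not called. SLC7A1 (CAT1), the most abundant importer of arginine and lysine, was read at 10358 ± 1231 and 8978 ± 489 counts (-0.20, SE 0.090, adjusted p = 0.0935), SLC7A2 (CAT2) at 552 ± 73.7 and 645 ± 34.5 (0.23, adjusted p = 0.156), and SLC7A4 at 19.1 and 14.5. With trend removal the values of SLC7A1 and SLC7A2 were -0.12 and -0.14.

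Family SLC1 holds the glutamate transporters and the neutral amino acid exchangers. SLC1A5 (ASCT2, chromosome 19, 46774883 to 46788594), the exchanger through which many tumour cells take up glutamine, was read at 6256, 7606 and 8381 counts in the controls and at 5989, 6565 and 7123 in the knockouts (-0.17, SE 0.10, adjusted p = 0.200). These groups overlapped through control replicate 1, and without it SLC1A5 was lower (-0.29, SE 0.084, limma adjusted p = 0.0065). With trend removal it stood at 0.061 (adjusted p = 0.638), and at -0.0275 when control replicate 1 was left out as well (adjusted p = 0.71). The related SLC1A4 (ASCT1) was not called (-0.13, adjusted p = 0.424).

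Among the glutamate transporters, SLC1A7 (EAAT5), known from the retina, fell from 19.4, 17.2 and 23.2 counts to 4.23, 3.54 and 7.34 (-1.83, SE 0.54, limma adjusted p = 0.015). These are 16 to 24 recovered reads a library against 4 to 8, so counting error is large, and the call was lost without control replicate 3 or knockout replicate 1 or 2 (adjusted p of 0.0523 to 0.071). With trend removal it stood at -1.62 (SE 0.48, adjusted p = 0.054). In the authors' deposited table its adjusted p was blank. SLC1A3 (EAAT1) at 198 ± 30.8 and 259 ± 17.6 counts (0.39, adjusted p = 0.069) and SLC1A1 (EAAT3) at 44.0 and 58.7 (0.42, adjusted p = 0.332) were not called.

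A single lactate carrier gene dominated at the RNA level. SLC16A3 (MCT4, chromosome 17, 82228397 to 82261129), the low-affinity exporter of lactate in glycolytic cells, had the highest control mean per kilobase of the transporter genes, although SLC3A2 exceeded it in control replicates 2 and 3. It was read at 42437, 48671 and 53684 counts in the controls and at 46211, 48900 and 53723 in the knockouts. The groups overlapped almost fully (0.044, SE 0.092, adjusted p = 0.744). With trend removal it was higher by 0.26 (SE 0.059, limma adjusted p = 0.018), a call that was lost without control replicate 2 or without any of the knockout replicates. SLC16A1 (MCT1), the widely expressed lactate carrier, was nearly absent, with 15.1, 50.5 and 22.2 counts in the controls and 46.5, 20.4 and 19.3 in the knockouts (0.033, adjusted p = 0.965). Per kilobase SLC16A3 exceeded it 873 to 2550 times in a library.

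SLC16A7 (MCT2, chromosome 12, 59596067 to 59789855), a high-affinity carrier of lactate and pyruvate, rose from 101, 168 and 139 counts to 311, 296 and 218. This was the largest increase among the called transporter genes (log2 fold change 1.02, SE 0.20, limma adjusted p = 0.0011), and its transcript has the lowest GC content of all 57, 33.3%. With trend removal it stood at 0.55 (SE 0.19, adjusted p = 0.087). Even so, in values as deposited it made up 0.229% ± 0.0562 of the summed level of the 4 lactate carriers in the knockouts and 0.115% ± 0.0228 in the controls, where SLC16A3 made up 99.6% and 99.8%. The fourth, SLC16A8 (MCT3), was read at 9.31 and 13.8 counts and not called.

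The remaining SLC16 genes carry other cargo or have none known. SLC16A5 (MCT6), which is not a lactate carrier, fell from 1102, 1141 and 1291 counts to 829, 841 and 909 (-0.45, SE 0.10, limma adjusted p = 0.0038), and stood at -0.21 with trend removal (adjusted p = 0.088). The aromatic amino acid carrier SLC16A10 (TAT1) was not called (0.45, adjusted p = 0.187). SLC16A13, SLC16A4, SLC16A14, SLC16A12 and SLC16A6 were not called either, with values from -0.77 to 0.33.

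SLC2A1 was the most abundant glucose carrier gene at the RNA level. SLC2A1 (GLUT1, chromosome 1, 42925375 to 42959176), the basal glucose carrier, was read at 28893, 28206 and 30808 counts in the controls and at 24261, 26546 and 27656 in the knockouts. All knockout libraries lay below the controls, but the difference of -0.17 missed the threshold (SE 0.079, limma adjusted p = 0.114), and with trend removal it was -0.011 (adjusted p = 0.923). SLC2A3 (GLUT3), a high-affinity glucose carrier, was read at 2816, 3707 and 3417 counts and at 3983, 4012 and 3673 (0.24, SE 0.098, adjusted p = 0.067), overlapping through control replicate 2, without which it was higher (0.33, adjusted p = 0.0372). With trend removal SLC2A3 stood at 0.14 (SE 0.091, adjusted p = 0.36). Per kilobase SLC2A1 exceeded SLC2A3 between 7.33 and 12.3 times. SLC2A14 shares 2430 bases of its longest transcript with SLC2A3, with 97.6% identity in the longest match of 1344 bases, and lies 28.1 kb away. Its 93.4 ± 4.04 and 106 ± 18.9 counts, and in smaller part those of SLC2A3, are therefore uncertain.

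The 2 called hexose carriers were minor ones. SLC2A12 (GLUT12) rose from 656, 604 and 502 counts to 711, 781 and 770 (0.37, SE 0.12, limma adjusted p = 0.027), and SLC2A8 (GLUT8), an intracellular carrier, fell from 1130, 887 and 1028 to 799, 777 and 855 (-0.32, SE 0.11, adjusted p = 0.036). The SLC2A12 call was lost without any library but control replicate 1 and after quantile normalization (0.28, adjusted p = 0.0765), and the SLC2A8 call without control replicate 1 or 3 or knockout replicate 1 or 2. With trend removal they stood at 0.022 and -0.069 (adjusted p = 0.922 and 0.712). SLC2A12 is uncertain as well, since 38.9% of its longest transcript overlaps TBPL1 on the other strand and the strand setting is not given in the sources used here. SLC2A13 (HMIT), the myo-inositol carrier, stood at 0.40 (adjusted p = 0.069), and SLC2A6, SLC2A10, SLC2A11, SLC2A4 and SLC2A5 at -0.49 to 0.18 without a call.

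Families SLC6 and SLC43 held 1 call among 8 tested genes. SLC6A8 (CT1), the creatine carrier, fell from 504, 499 and 579 counts to 433, 414 and 397 (-0.34, SE 0.12, limma adjusted p = 0.039), and stood at -0.12 with trend removal (adjusted p = 0.557). It shares 622 bases with the pseudogene SLC6A10P, and its call held only when control replicate 1 was the library left out. The taurine carrier SLC6A6 (TauT), at 6093 ± 485 and 6201 ± 276 counts (0.027), and the glycine carrier SLC6A9 (GlyT1), at 1253 ± 211 and 1101 ± 51.7 (-0.17), were not called, nor were SLC6A12 and SLC6A14, at under 20 counts a group on average. Of the SLC43 genes, SLC43A1 (LAT3) and SLC43A2 (LAT4), which carry branched-chain amino acids, stood at -0.015 and 0.020, and SLC43A3, which carries purine bases, at -0.13, none of them called. SLC43A3 shares 1355 bases with AP000781.2 and is uncertain.

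**Figure D3:**
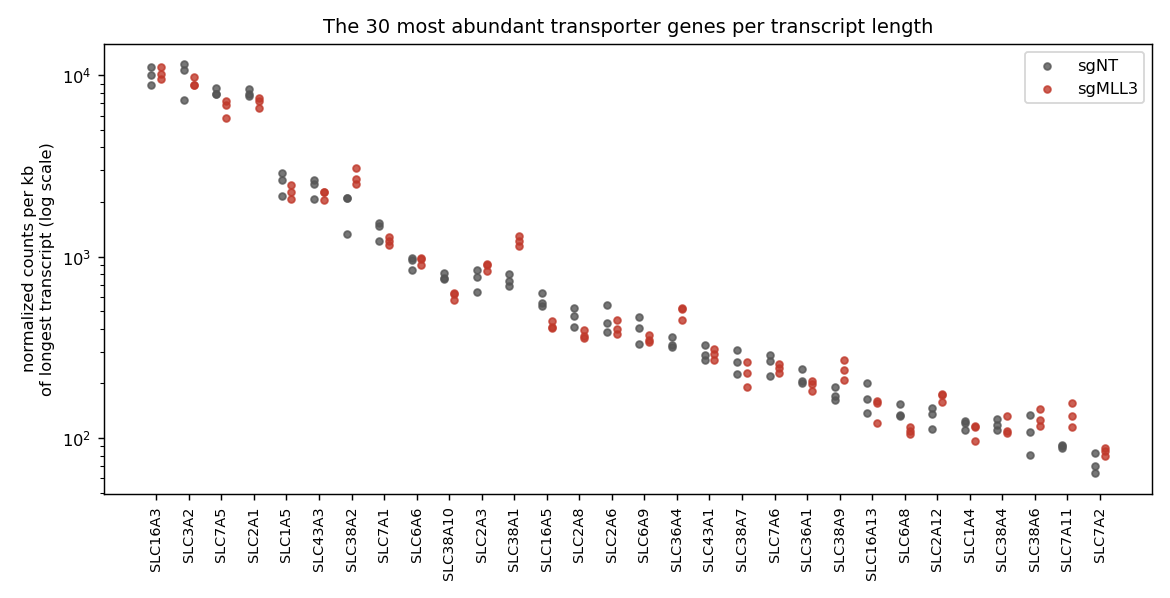
Normalized counts per kilobase of the longest transcript (vertical axis, log scale) of the 30 most abundant transporter genes, ordered by the control mean, with one point per library, control in grey and knockout in red. SLC16A3, SLC3A2, SLC7A5 and SLC2A1 lead at 7984 to 9993 in the controls, and the red points of SLC38A1 and SLC38A2 stand above the grey ones.

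Per kilobase, 4 genes led the controls. SLC16A3 stood at 9993 ± 1167, SLC3A2 at 9819 ± 2246, SLC7A5 at 8107 ± 332 and SLC2A1 at 7984 ± 367 normalized counts per kilobase, and the library values of each overlapped those of its neighbour in this order. SLC1A5 (2573 ± 373), SLC43A3 (2411 ± 306) and SLC38A2 (1851 ± 452) followed, and their library values overlapped from one to the next. In the knockouts SLC38A2 stood at 2767 ± 301 and SLC1A5 at 2276 ± 197, and SLC38A1 at 1226 ± 76.0, beside SLC7A1 at 1222 ± 66.5. The same 4 genes led the knockouts, at 10270 for SLC16A3, 9188 for SLC3A2, 6605 for SLC7A5 and 7127 for SLC2A1.

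The direction of a call followed the GC content of the transcript. The 7 higher transporter genes had between 33.29% and 41.28% GC and the 6 lower ones between 59.86% and 64.35%. Bounds of 45% and 55%, set after the values were seen, divide the genes further. Of 20 tested transporter genes at or under 45% GC, 7 were higher and 0 lower, where 2513 of all 5358 such genes were higher and 44 lower. Between the bounds 0 of 13 were called, where 229 of all 4947 such genes were higher and 496 lower. At or above 55% GC 0 were higher and 6 of 21 lower, where 18 of all 4293 such genes were higher and 1559 lower. The median of the low-GC transporter genes was 0.38 as deposited and -0.011 with trend removal, and that of the high-GC ones -0.17 and 0.025. Both medians lay near those of all genes of like GC content as deposited (0.33 and -0.24).

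**Figure D4:**
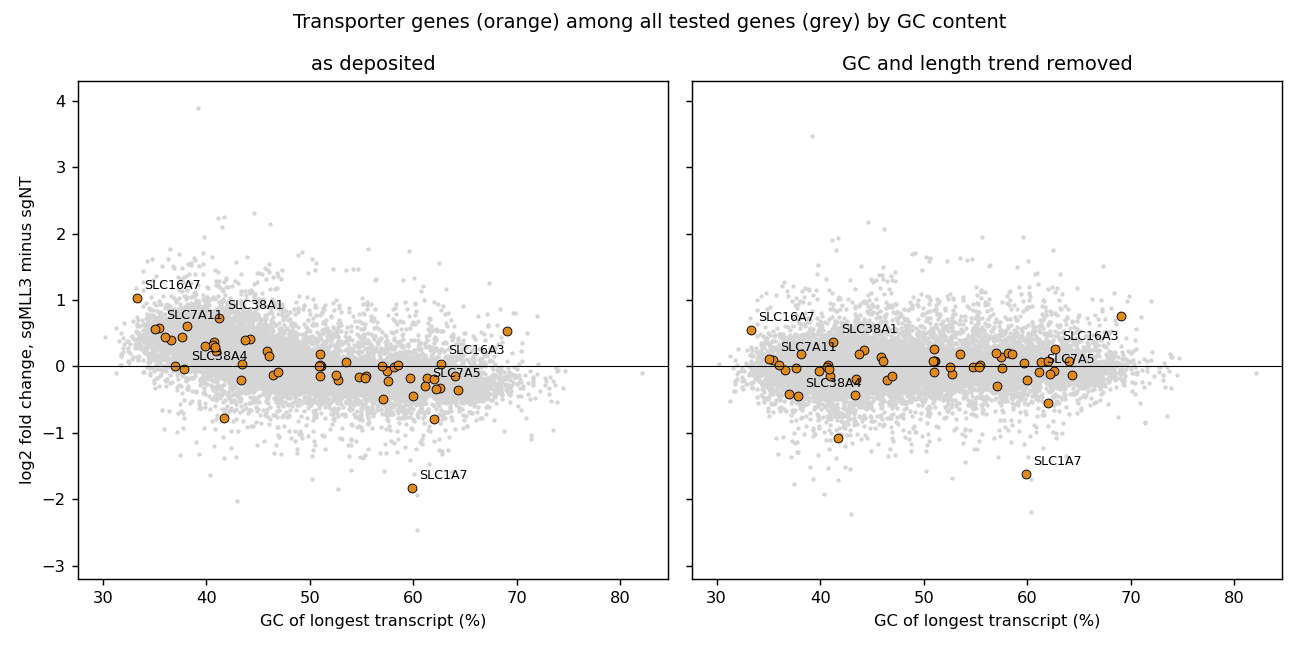
Log2 fold change (knockout minus control, vertical axis) against the GC content of the longest transcript (horizontal axis, percent) for all tested genes in grey and the 54 transporter genes in orange, as deposited on the left and after trend removal on the right. Values on the left fall with GC content (rho of -0.673 over all genes), and on the right SLC38A1 stays above the line at 0 (0.37) and SLC38A4 lies below it (-0.44).

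Control replicate 1 stood apart from the other controls in the amino acid response. When amino acids are scarce or the endoplasmic reticulum is stressed, ATF4 raises genes such as TRIB3, CHAC1, ASNS, DDIT3 and SLC3A2. Of 22 genes of this response, 14 were lowest in control replicate 1 of all 6 libraries (63.6%), against 15.3% of all tested genes and 18 of 54 transporter genes (33.3%). CHAC1, which degrades glutathione, was read at 181 counts there, against 436 and 569 in the other controls and 314 to 396 in the knockouts. The stress protein gene NUPR1 was read at 40.9 counts, against 125 and 133, and TRIB3 at 1857, against 3460 and 3719. ATF4 itself was at 0.752 times the mean of the other controls, SLC38A2 at 0.629 and SLC3A2 at 0.654 times, while PSAT1, a serine synthesis gene of the same list, was at 1.22 times. These genes were picked for display after their values were seen.

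**Figure D5:**
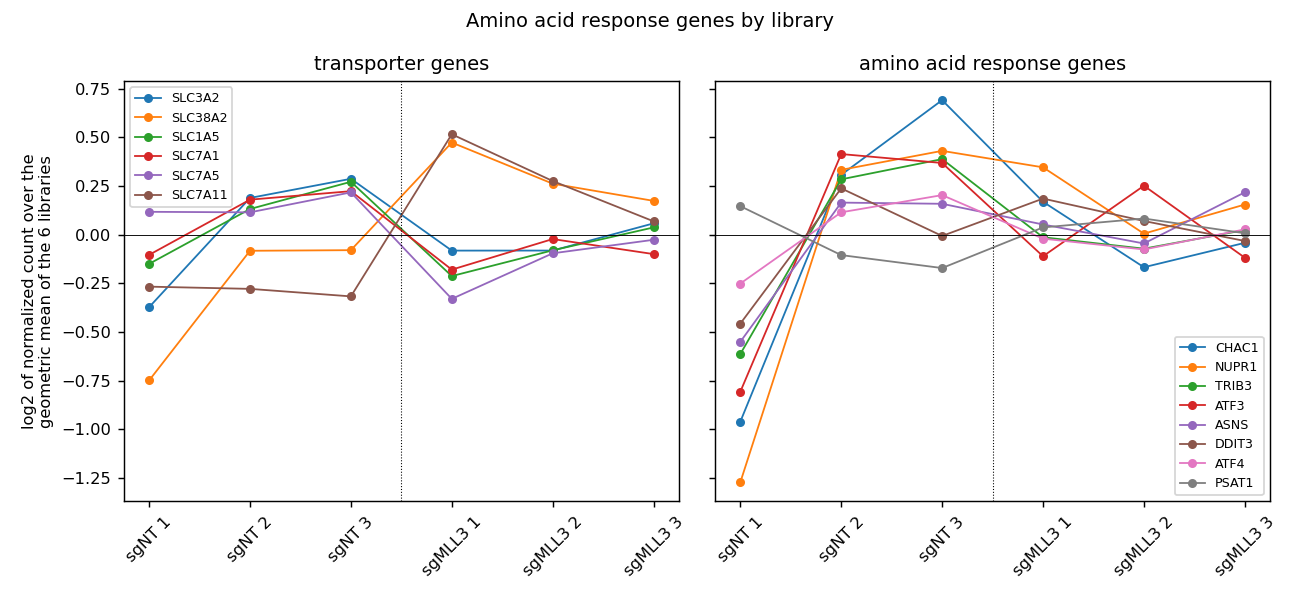
Log2 of the normalized count over the geometric mean of the 6 libraries (vertical axis) for 6 transporter genes on the left and 8 amino acid response genes on the right, in each library (horizontal axis); lines join the values of a gene and give no order. Control replicate 1 is low for SLC38A2 and SLC3A2 and for all response genes shown except PSAT1.

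In the comparison of groups, 2 of the 22 response genes were higher (CEBPG and EIF2AK3) and 2 lower (SHMT2 and ATF5), against 18.9% and 14.4% of all tested genes, with a median log2 fold change of -0.0056. The list counted 1 higher and 0 lower without knockout replicate 1 or 2, 2 and 0 without control replicate 3, and 3 and 1 without control replicate 2. Without control replicate 1 the counts were 2 higher and 6 lower, with TRIB3, CHAC1, ATF3 and CEBPB among the lower genes, and 10 transporter genes were higher and 11 lower. Those transporter counts stood against 22.6% and 19.6% of all genes tested without that library (42.2% in either direction). SLC7A1 (-0.30, SE 0.078, limma adjusted p = 0.0024) then joined SLC3A2 and SLC1A5 among the lower transporter genes. When the trend was removed in that setting as well, SLC7A1 was called and SLC3A2 and SLC1A5 were not. With trend removal and all libraries the response list counted 1 higher (DDIT4) and 0 lower, against 4.08% and 5.95% of all genes. It then counted 0 and 0 when control replicate 2 or a knockout replicate, whichever it was, was left out, and 1 and 2 without control replicate 1.

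ATF4 acts through the C/EBP-ATF response element, whose core reads TGATGNAA. RefSeq promoter windows on GRCh38.p14, from 250 bases before to 50 after a start site, were found for 44 of the 57 genes, and 7 of these held the core on either strand (15.9%), against 4.46% of all 27305 genes with a window. The genes without a window, among them SLC7A11, SLC16A1, SLC16A5 and SLC2A3, were not searched. The transporter genes had more windows each (73 for 44 genes, against 35116 for all), and by window the shares were 9.6% and 3.62%. Every match is shown, 5′ to 3′ on the strand of the gene with the core or its reverse complement in capitals, to set the letters beside the calls.
SLC1A3: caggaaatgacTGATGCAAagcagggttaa
SLC1A4: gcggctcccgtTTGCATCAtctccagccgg
SLC1A5: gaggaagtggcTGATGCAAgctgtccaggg
SLC2A5: accgtagactgTTCCATCAggacaatgctg
SLC3A2: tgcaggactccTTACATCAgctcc
SLC7A1: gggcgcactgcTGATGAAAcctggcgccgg
SLC38A1: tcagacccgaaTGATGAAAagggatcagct
These stretches lie at chr5:36596357-36596386, chr2:64989381-64989410, chr19:46784893-46784922, chr1:9069781-9069810, chr11:62881725-62881748, chr13:29595663-29595692 and chr12:46266502-46266531, in the same order, with the genes of chromosomes 19, 1, 13 and 12 on the minus strand. Counted from the first transcribed base as 1, the match begins at -4 in SLC38A1, at 8 in SLC7A1 and at 38 in SLC3A2, and the others begin between -220 and -7. Of these 7 genes SLC38A1 was higher in both analyses and the other 6 were called in neither. Without control replicate 1, SLC1A3 and SLC38A1 were higher and SLC1A5, SLC3A2 and SLC7A1 lower as deposited. When the trend was removed in that setting as well, SLC38A1 and SLC7A1 alone of the 7 were called. A match describes the letters only and does not show a binding site.

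Genes that work with the transporters were counted by lists, each to be read against the 18.9% higher and 14.4% lower of all tested genes. Counts with trend removal stand against 4.08% and 5.95%. Leaving out a library also moved the calls over all genes, 2760 higher and 2099 lower with every library. They were 1587 and 556, 1784 and 715, and 2735 and 2192 without knockout replicates 1, 2 and 3 in turn. Without control replicates 1, 2 and 3 in turn they were 3300 and 2868, 2325 and 1355, and 2088 and 1066. Of 13 genes of MCT chaperones and of lactate or pyruvate handling, 3 were higher and 2 lower (median 0.042), close to those shares. BSG (basigin), the chaperone that brings MCT1 and MCT4 to the membrane, fell from 55652 ± 3089 to 47770 ± 2755 counts (-0.22, SE 0.080, limma adjusted p = 0.042), and EMB (embigin), the partner of MCT2, rose from 291 ± 59.3 to 493 ± 52.0 (0.77, SE 0.15, adjusted p = 0.0013). The pyruvate dehydrogenase kinases PDK1 and PDK3 were higher and PDK2 lower (0.44, 0.45 and -0.29). With trend removal BSG and EMB stood at 0.027 and 0.35, neither called, and the list counted 0 higher and 1 lower, the pyruvate carrier subunit gene MPC2. As deposited, the lower calls of the list fell to 0 or 1 whichever library was left out, and the MPC2 call was lost without control replicate 2 or knockout replicate 1 or 3. MPC2, DDIT4, GLUL and HK2 are named for their values after trend removal.

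Among 14 measured genes of glutamine and cystine use, 4 were higher and 2 lower (median -0.15), against 18.9% and 14.4% of all tested genes. NFE2L2, the NRF2 transcription factor that drives SLC7A11 and glutathione synthesis, rose from 2334 ± 358 to 3521 ± 193 counts (0.60, SE 0.10, limma adjusted p = 0.00044) and stayed higher with trend removal (0.51, adjusted p = 0.0040). GCLC, a subunit of the enzyme that begins glutathione synthesis, rose from 763 ± 70.2 to 1049 ± 95.3 (0.46, SE 0.11, adjusted p = 0.0054), and by 0.29 with trend removal (adjusted p = 0.049). KEAP1, the inhibitor of NRF2, and GPX4 were lower (-0.32 and -0.30) and lost their calls with trend removal, which left 2 higher (NFE2L2 and GCLC) and 1 lower, the glutamine synthetase gene GLUL (-0.39, adjusted p = 0.011). Of all genes, 4.08% were higher and 5.95% lower with trend removal. Without control replicate 1 the list counted 4 higher and 6 lower as deposited, and 3 and 1 without control replicate 3 or knockout replicate 1 or 2. With trend removal it counted 1 and 0 without knockout replicate 1 or 2, 1 and 1 without control replicate 2 or knockout replicate 3, and 3 and 4 without control replicate 1.

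In the list of amino acid sensing by mTORC1, 9 of 37 genes were higher and 7 lower (median -0.10), against 18.9% and 14.4% of all tested genes. These counts fell to 2 and 2 without knockout replicate 1, to 3 and 4 without knockout replicate 2 and to 4 and 5 without control replicate 3. TSC2, which holds mTORC1 in check together with TSC1, fell from 4791 ± 385 to 3423 ± 257 counts (-0.48, SE 0.089, limma adjusted p = 0.00073), and TSC1 rose from 2581 ± 135 to 3194 ± 26.01 (0.31, SE 0.084, adjusted p = 0.010). Both kept their calls with trend removal (-0.29 and 0.28, adjusted p = 0.0061 and 0.015) and were the 2 genes of the list then called. Of all genes, 4.08% were then higher and 5.95% lower. The count of the list became 0 higher and 1 lower whichever knockout replicate was left out, and 2 and 4 without control replicate 1. FNIP1 and RRAGD were higher (0.55 and 0.42) and NPRL3 and WDR24 lower (-0.37 and -0.45) as deposited alone. Of 12 genes that control glucose uptake, 4 were higher and 3 lower (median -0.00013; 18.9% and 14.4% of all tested genes), among them STXBP4, RAB10 and TBC1D4 (0.71, 0.26 and 0.27) against the kinases AKT1 and AKT2 and the sugar-sensing factor MLXIP (-0.33, -0.32 and -0.30). With trend removal 1 was higher, the hexokinase gene HK2 (0.22, adjusted p = 0.025), and 0 lower, against 4.08% and 5.95% of all genes. As deposited the counts fell to 1 and 1 without knockout replicate 1, 1 and 2 without knockout replicate 2, and 2 and 2 without control replicate 3. With trend removal none was called when any library but control replicate 1 was left out, so the HK2 call was lost there, and 1 and 3 were called without control replicate 1. Of 13 genes of mitochondrial carriers, most of them for amino acids, 0 were higher and 3 lower (median -0.12). The lower ones were SLC25A39, SFXN3 and SLC25A22 (-0.27, -0.22 and -0.25), and no gene of the list was called with trend removal. The share of lower calls among all tested genes was 14.4%. The 3 lower calls fell to 0 without knockout replicate 1 or 2 and to 1 without control replicate 2 or 3. Over all genes the lower calls fell from 2099 to 556, 715, 1355 and 1066 in those settings, in the same order.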

How the data were processed

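Counts of reads per gene had been divided by 1 size factor per library by the authors, and these normalized counts are a signal in the deposited table. Per the file headers the authors' table also holds a log2 fold change and its error, a test statistic (a score), a p-value and its adjusted form for each gene. Tools named by the submitters' processing notes were STAR 2.4.0, featureCounts 1.5.0, DESeq2 1.30.1 and FastQC. Annotation, strand setting and filters: not given in the sources used here.

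Of the 15706 genes deposited, 14618 with a mean of at least 10 were tested with limma 3.58.1 (R 4.3.3, mean-variance trend) on log2(value + 1), two-sided, 3 libraries against 3, with Benjamini-Hochberg adjustment over all genes and a threshold of 0.05. The log2(value + 1) scale understates changes of low genes. Dividing each library by 1 step turned 100% of its values whole (within 0.01), and these recovered reads were used for edgeR 4.0.16 and DESeq2 1.42.0; edgeR called 4912 genes. For trend removal, natural splines with 5 terms each of GC percent and log2 length of the longest GENCODE 29 transcript were fitted to the gene-centred values of each library and subtracted (14598 genes). Lengths per kilobase, coordinates and overlaps (at least 100 bases at 97% identity) also come from GENCODE 29, and promoters from RefSeq.

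In simulated data with 3 libraries against 3 (14591 genes), limma recovered 53% of genes changed by a log2 of 0.5 and 87% of those changed by 1, and 7.28% of its calls were false. The simulated libraries held 100 changed genes of each size and no trend along GC content. These shares therefore do not measure power or false calls in the deposited data. Named genes were KMT2C, all called transporter genes, 10 well-known transporter genes and, of each list, up to 3 genes per direction with the smallest adjusted p; others are said to have been chosen later. The members and lists were chosen with earlier results of these data known. Alternatives were other pseudocounts and filters, quantile normalization, a replicate block, the count tools and leaving out each library. Some items withheld for evaluation are not reported here.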

Additional observations from a re-analysis of the deposited data

How the results depend on the processing

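As deposited, 7 transporter genes were higher and 6 lower, and 2760 and 2099 of all genes. Pseudocounts of 0.5 and 5, other filters, quantile normalization, edgeR, DESeq2 and the authors' adjusted p gave 6 or 7 higher and 5 or 6 lower transporter genes. With trend removal they were 2 and 1 (595 and 868 of all genes). Leaving out 1 library at a time gave 5 to 10 higher and 2 to 11 lower transporter genes, and 1587 to 3300 higher and 556 to 2868 lower of all genes. With trend removal as well, these were 0 to 2 and 0 to 4, and of all genes 127 to 1490 higher and 252 to 2112 lower: without control replicates 1, 2 and 3 in turn 1490, 293 and 375 higher and 2112, 439 and 511 lower, and without knockout replicates 1, 2 and 3 127, 149 and 225 higher and 252, 266 and 379 lower. In that last setting SLC2A12 turned to -0.036, -0.00014 or -0.032 without control replicate 3 or knockout replicate 2 or 3, SLC2A8 to 0.039 and SLC38A2 to -0.065 without control replicate 1, and SLC38A9 to -0.012 or -0.019 without control replicate 2 or knockout replicate 1. The cause was not tested. The replicate numbers were not taken to pair the libraries. The deviations of same-numbered libraries from their group means correlated at 0.0658, 0.00629 and 0.129, each the best match of its libraries except for replicate 2. Spearman's rho between GC content and the deviation from the gene mean was 0.316, 0.459 and 0.648 in control replicates 1, 2 and 3. In knockout replicates 1, 2 and 3 it was -0.68, -0.589 and -0.239, so it rose with the number in both groups. Whether same-numbered libraries shared a batch was not tested. With a replicate block 10 transporter genes were higher and 10 lower (3241 and 3024 of all genes), the added ones being SLC1A3, SLC1A5, SLC2A1, SLC2A3, SLC2A13, SLC38A7 and SLC7A1, and with the block and trend removal together 2 and 0 (540 and 773). Depth limits SLC1A7 among the called genes, at 4 to 24 reads a library.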

Other observations

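Other short motifs were counted in the same promoter windows of 44 transporter genes, on both strands. ACGTG, the core bound by hypoxia-inducible factors, was found for 22 of the 44, against 24.87% of all genes, and GCGTG for 26 (59.1%, against 40.57%). CACGTG, the E-box bound by MYC, which contains ACGTG, was found for 11 of the 44, against 8.77%, and TGACNNNGC, the core of the antioxidant response element bound by NRF2, for 7 (15.9%, against 16.06%). By window the shares were 31.5% against 21.41%, 47.9% against 36.54%, 15.1% against 7.26% and 9.6% against 13.35%, in the same order. These are counts of letters with no test, and genes without a window, SLC7A11 among them, were not searched.

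Transporter genes as a whole took 0.417% to 0.481% of the normalized counts of a control library and 0.444% to 0.479% of those of a knockout library, so their summed share overlapped between the groups. SLC38A1 and SLC6A6, on different chromosomes, had the same recovered reads in control replicates 1 and 2 (5143 and 6000) and differed in the other 4 libraries. How that came about was not tested.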
